A study of Mus musculus with 2 samples.

Results

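The promoters described here belong to protein-coding genes that had a broad peak of open chromatin at a start site in Taf4-inactivated enteroids and none in control enteroids. A gene was a member when a Taf4-inactivated peak lay within 1 kb of any of its annotated start sites and no control peak lay within 1 kb of any of them. The genes were those of chromosomes 1 to 19 in the mm9 annotation. Of 21418 such genes, 622 were members (2.9%, exact 95% interval 2.68 to 3.14), whereas 1223 (5.71%) met the reverse rule with a peak in control only, 13604 (63.5%) had a peak in both and 5969 (27.9%) in neither. The members were selected on the presence and absence of these peaks, so their peak values are given as a description. Intervals of shares are exact Clopper-Pearson intervals and cover counting error only.

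Chromatin was profiled by ATAC-seq, which uses a transposase to tag accessible DNA with adapters for sequencing. The enteroids were epithelial cultures grown from ileal crypts of mice aged 4 months on a mixed C57Bl6/129sv background. Both genotypes were homozygous for a floxed Taf4 allele (Taf4 lox/lox), and both received 1 µM 4-hydroxytamoxifen (4-OHT) for 3 days. The Taf4-inactivated culture also carried VilCreERT2, a Cre recombinase that is driven by the villin promoter in intestinal epithelium and is switched on by 4-OHT, whereas the control culture had no Cre. There was 1 library per genotype, with no replicate of either, so each difference describes this pair of libraries, and the effect of Cre activity itself and that of Taf4 loss cannot be told apart in them. The Taf4-inactivated library was the shallower one. The background level solved from the fold and p of its peaks was 7.35 reads, against 12.1 in control (1.65 times as high), and the lists held 71282 and 90445 peaks. Taf4a, the targeted gene, had a start site peak in both libraries (fold 2.57, percentile 58.7 of the Taf4-inactivated list), and such a peak gives no reading of the deletion of floxed exons. Of 12 genes that mark intestinal epithelium, 11 had a start site peak in both libraries and the other one, Krt20, was a member.

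Taf4 is a structural subunit of TFIID, the complex that recognises core promoters and nucleates assembly of the RNA polymerase II machinery. Mammalian promoters range from CpG-rich ones, typical of broadly expressed genes and usually accessible in many tissues, to CpG-poor ones, typical of tissue-restricted genes and more often carrying a TATA box. In the small intestine, differentiated enterocytes use many CpG-poor promoters for genes of nutrient digestion, lipid transport and the metabolism of foreign compounds, and the latter include cytochrome P450 enzymes and the transferases that conjugate their products.

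Promoters of 8 members are printed from the mm9 genome, 250 bases before the annotated start site and 50 bases from it on. The first 5 had the highest fold enrichment among members whose peak covered the start site, and the last 3 belong to the enterocyte list described below and were added after their values were seen. Each is written 5′ to 3′ in the direction of transcription. Capitals mark exact matches on either strand to 1 of 6 motifs, namely the TATA box TATAAA, the AP-1 site TGANTCA, the GATA site AGATAA, the GC box GGGCGG, the CCAAT box CCAAT and the HNF4 site CAAAGTCCA. Matches on the opposite strand appear as the reverse complement, and a base was capitalised once where matches overlapped.
Pot1a, chr6:25759177-25759476, minus strand: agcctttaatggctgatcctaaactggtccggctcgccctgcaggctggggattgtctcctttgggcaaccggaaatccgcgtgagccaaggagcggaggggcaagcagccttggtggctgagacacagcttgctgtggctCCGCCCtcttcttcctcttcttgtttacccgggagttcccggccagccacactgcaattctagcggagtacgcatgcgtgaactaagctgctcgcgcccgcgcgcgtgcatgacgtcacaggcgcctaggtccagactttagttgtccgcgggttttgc
Vps41, chr13:18808911-18809210, plus strand: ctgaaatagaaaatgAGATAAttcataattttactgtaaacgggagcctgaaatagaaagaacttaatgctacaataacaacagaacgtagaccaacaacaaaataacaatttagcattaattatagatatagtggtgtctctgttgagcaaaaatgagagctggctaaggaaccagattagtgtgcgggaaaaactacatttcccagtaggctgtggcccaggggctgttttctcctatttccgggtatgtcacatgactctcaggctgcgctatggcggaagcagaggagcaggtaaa
Aspa, chr11:73140260-73140559, minus strand: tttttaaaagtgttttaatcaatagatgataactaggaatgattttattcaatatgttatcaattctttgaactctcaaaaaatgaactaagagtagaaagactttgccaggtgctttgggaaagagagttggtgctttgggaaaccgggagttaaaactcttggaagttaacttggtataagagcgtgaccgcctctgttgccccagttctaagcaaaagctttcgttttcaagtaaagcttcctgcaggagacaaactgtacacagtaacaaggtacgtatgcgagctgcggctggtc
Tnfrsf22, chr7:150835473-150835772, minus strand: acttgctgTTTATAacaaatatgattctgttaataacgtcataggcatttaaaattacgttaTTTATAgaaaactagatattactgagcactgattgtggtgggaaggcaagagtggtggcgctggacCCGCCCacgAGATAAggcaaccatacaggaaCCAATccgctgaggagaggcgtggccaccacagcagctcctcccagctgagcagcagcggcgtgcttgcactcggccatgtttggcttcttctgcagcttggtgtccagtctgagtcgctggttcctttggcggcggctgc
Sult1b1, chr5:87965198-87965497, minus strand: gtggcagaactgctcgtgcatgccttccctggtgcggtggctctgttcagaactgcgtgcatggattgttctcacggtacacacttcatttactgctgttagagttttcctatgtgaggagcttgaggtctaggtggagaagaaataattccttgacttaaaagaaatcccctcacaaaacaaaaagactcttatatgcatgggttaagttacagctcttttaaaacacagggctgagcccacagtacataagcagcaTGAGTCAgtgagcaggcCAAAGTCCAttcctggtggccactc
Cyp3a11, chr5:146691491-146691790, minus strand: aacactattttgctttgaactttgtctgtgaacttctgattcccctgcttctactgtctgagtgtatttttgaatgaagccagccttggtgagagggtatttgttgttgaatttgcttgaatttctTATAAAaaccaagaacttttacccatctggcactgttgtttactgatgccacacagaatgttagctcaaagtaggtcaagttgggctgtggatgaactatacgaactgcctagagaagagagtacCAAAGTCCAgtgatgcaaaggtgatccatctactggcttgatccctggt
Mgam, chr6:40578580-40578879, plus strand: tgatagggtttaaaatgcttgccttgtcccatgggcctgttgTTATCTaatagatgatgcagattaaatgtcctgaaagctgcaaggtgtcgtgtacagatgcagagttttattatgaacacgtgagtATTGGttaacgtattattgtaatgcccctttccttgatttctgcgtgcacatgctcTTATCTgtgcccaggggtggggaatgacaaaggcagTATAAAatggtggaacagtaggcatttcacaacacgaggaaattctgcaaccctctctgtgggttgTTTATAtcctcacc
Fabp1, chr6:71149571-71149870, plus strand: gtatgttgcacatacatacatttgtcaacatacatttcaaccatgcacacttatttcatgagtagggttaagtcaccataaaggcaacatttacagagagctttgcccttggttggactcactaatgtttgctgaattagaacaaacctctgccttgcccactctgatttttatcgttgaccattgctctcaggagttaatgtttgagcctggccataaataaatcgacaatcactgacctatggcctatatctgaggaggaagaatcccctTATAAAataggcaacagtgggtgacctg

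These promoters differed in composition. Pot1a, which encodes a protein that protects chromosome ends, held 22 CpG dinucleotides in the 300 bases shown, and Cyp3a11, a drug-metabolising P450 of liver and gut, held 1. With the start site as position 1 and the base before it as position -1, Mgam, a brush border enzyme that releases glucose from starch, had a TATAAA match starting at position -30, where a TATA box usually lies. Fabp1, a fatty acid carrier of enterocytes and hepatocytes, had 1 match at position 23, downstream of the annotated start, and the match in Cyp3a11 lay at position -124. Sult1b1, a sulfotransferase, held an AP-1 match at position 9 and an HNF4 match at position 26, and Cyp3a11 an HNF4 match at position 2. Aspa, which deacetylates N-acetylaspartate, held none of the 6 patterns in this window. A match is a match of letters and says nothing about occupancy.

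Members' peaks were of ordinary strength and narrow for a promoter. The fold enrichment, which is the read level of a peak over the background of its own library as the authors' peak caller gave it, had a median of 2.37 (quartiles 2.17 and 2.67, range 1.78 to 4.47). Within the Taf4-inactivated list this placed the median member at the 43.1 percentile, and 362 members (58.2%) lay below the median of all peaks, whereas 15 were at or above the 90th percentile. The −log10 q was at least 2 for 387 members (62.2%) and at least 5 for 94 (15.1%). Promoters called in both libraries had a median fold of 3.26 in the same list, at percentile 82.7.

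The width of the members' peaks had a median of 419 bp (95% interval of the median 397 to 455, quartiles 284 and 755) and ran from 200 bp, the shortest width present, to 2998 bp. Peaks of promoters called in both libraries had a median width of 998 bp (quartiles 720 and 1351) in the Taf4-inactivated list. When these were limited to the 2183 genes with a −log10 p inside the members' quartiles, the median was 829 bp, and the 310 members inside the same range had a median of 385 bp (quartiles 255 and 743). Peaks under 300 bp made up 28.9% of members (180), 3.02% of promoters called in both and 12.4% of those inside that range of −log10 p, and peaks of 1000 bp or more made up 15.8% (98), 49.9% and 38.5%. Control-only promoters, measured in the deeper library, had a median width of 582 bp and a median fold of 1.99. Fold values of the 2 libraries are not on a common scale.

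**Figure D1:**
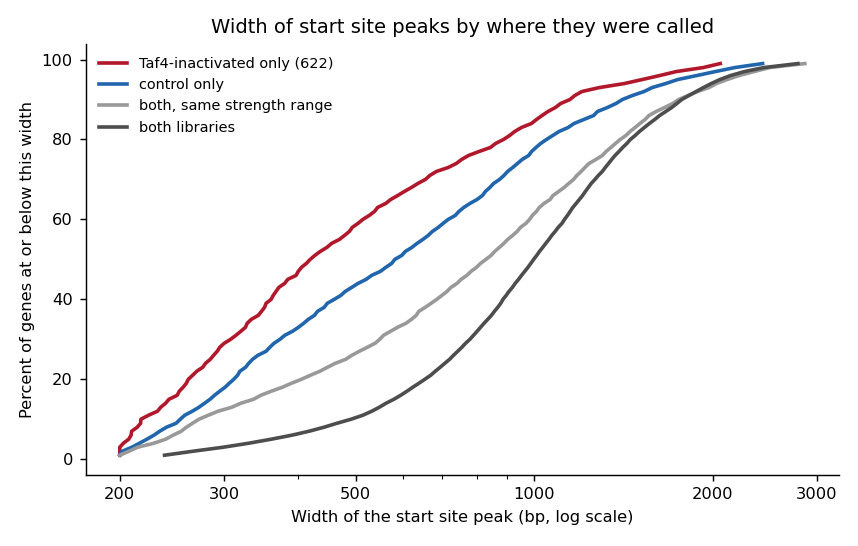
Cumulative distribution of the width of start site peaks (bp, log scale) against the percent of genes, for members, for promoters called in both libraries (all, and those with a −log10 p inside the members' quartiles) and for control-only promoters. The members' curve lies to the left of the others, with a median of 419 bp against 998, 829 and 582 bp. Widths of control-only promoters come from the control list and all others from the Taf4-inactivated list.

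Wide peaks were found at Gm10463 with 2998 bp, Gm10419 with 2976 bp, Eno3, the muscle enolase, with 2475 bp, and Ssbp4 with 2328 bp. Their folds ran from 1.98 to 2.69, on both sides of the median member, and each of these 4 peaks overlapped a control peak that began beyond 1 kb from the start sites. Ssbp4 was also the member with a control peak closest to the limit, at 1002 bp, followed by Hyal1 at 1004 bp and Efcab4b at 1009 bp, and each of these 3 had a Taf4-inactivated peak over a start site. On the other side of that limit, Slc38a4, Btn1a1 and 4921530D09Rik had a Taf4-inactivated peak and were no members because a control peak lay 997, 995 and 975 bp from a start site. At the limit for presence, the Taf4-inactivated peaks of Wfdc15b, Pmel and Mrgprg lay 988, 983 and 976 bp away, and those of BC007180, D6Ertd527e and Gm7694, just outside, lay 1003, 1011 and 1011 bp away. These genes were picked for lying closest to the limit, so their distances cannot tell whether there is a break at 1 kb.

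The peak covered a start site in 335 members (53.9%). It lay within 1 kb of the gene's 5′-most start site in 542 (87.1%) and of the start of a transcript that is itself coding in 590 (94.9%). In 274 (44.1%) its centre was upstream of the start site. The nearest control peak was 4260 bp away at the median (quartiles 2111 and 11541). It was within 2 kb for 145 members (23.3%), within 5 kb for 336 (54.0%) and within 50 kb for 580 (93.2%), so that most members lay in neighbourhoods with control peaks. In 39 members (6.27%) the Taf4-inactivated peak itself overlapped a control peak beyond the limit, so that part of the accessible DNA was called in both libraries. At some of these, such as Ssbp4, the Taf4-inactivated peak still covered a start site that the control peak did not come within 1 kb of. These 39 peaks were wide (median 1309 bp), and the other 583 had a median of 400 bp. Control-only genes lay a median of 5373 bp from the nearest Taf4-inactivated peak, and genes called in neither library lay 22194 bp from the nearest control peak. There were 607 distinct peaks, since 15 peaks served 30 members that share or face each other's start sites, such as Zfp942 with Zfp943 and Trim60 with Trim61. Such pairs are 1 measurement each.

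**Figure D2:**
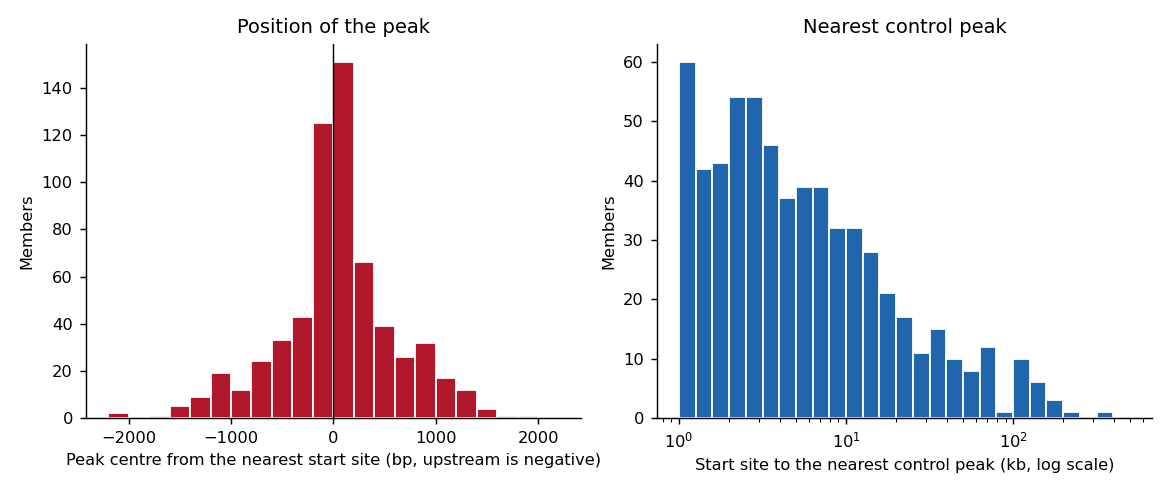
Histograms over the 622 members of the centre of the Taf4-inactivated peak relative to the nearest start site (left, bp, upstream negative) and of the distance from a start site to the nearest control peak (right, kb, log scale). Peak centres gather around the start site, and the nearest control peak was within 5 kb in 54.0% of members.

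The 12 members with the highest fold fell into 3 kinds. The first were genes of detoxification and lipid or steroid metabolism. Sult1b1 had a fold of 4.19 in a peak of 277 bp over an annotated start site, with the nearest control peak 11560 bp away. Akr1c14, an aldo-keto reductase acting on steroids, had 4.12 in 354 bp, with the peak 731 bp from the start site and the nearest control peak 47131 bp away. Cyp2c65 and Cyp3a57, both cytochrome P450 enzymes, had folds of 3.91 in 332 bp and 3.79 in 351 bp, both over the start site, and control peaks no closer than 19885 and 18346 bp. All 4 start sites were CpG-poor and had no control peak in the surrounding 10 kb. The peaks of Sult1b1 and Akr1c14 lay more than 1 kb from the 5′-most start site of their gene.

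The second kind were genes used by most cells. Pot1a had the highest fold of all members, 4.47, in a peak of 750 bp, with a control peak no closer than 56142 bp, and Vps41, a subunit of a tethering complex for lysosomal fusion, had 4.36 in 448 bp, with 31297 bp to the nearest control peak. Rpap1, an RNA polymerase II-associated protein, had 3.85 in 544 bp, with 1621 bp to the nearest control peak. Each peak covered the start site. The CpG ratio (observed over expected, in 1 kb around the start site) was 0.709 at Pot1a, 0.704 at Vps41 and 0.757 at Rpap1, above the median of 0.581 over all coding genes. Of these, only Rpap1 had a CpG-rich window as defined below, since GC was 48.2% at Pot1a and 43.9% at Vps41, under the required 50%.

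The third were Gcnt3 (4.46, 505 bp), a mucin-type glycosyltransferase of gut epithelium, Aspa (4.33, 454 bp), Tnfrsf22 (4.22, 581 bp), a decoy receptor of the TNF family, and the predicted genes 1700022P22Rik (4.16, 715 bp) and Gm13283 (4.08, 232 bp). Their nearest control peaks lay between 1135 bp, at Gcnt3, and 4930 bp, at 1700022P22Rik. The peak of Gcnt3 was itself 963 bp from the start site and overlapped that control peak, which is 231 bp wide, so Gcnt3 was a member through the 1 kb limit and not through a place called in 1 library. None of the other 11 peaks overlapped a control peak.

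**Figure D3:**
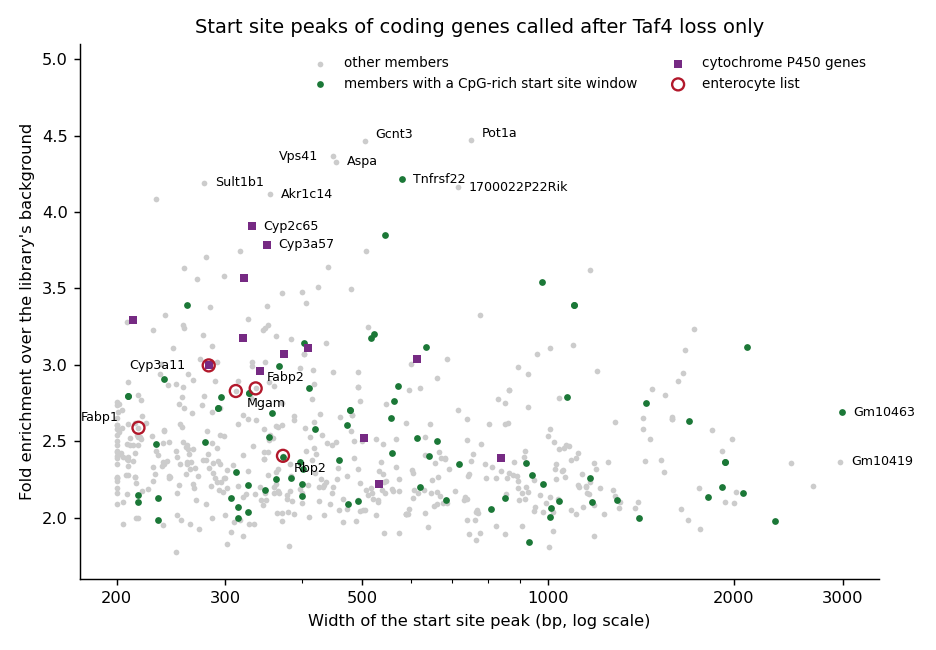
Each point is 1 of the 622 members, with the width of its Taf4-inactivated start site peak (bp, log scale) and the fold enrichment over the background of that library. Squares are cytochrome P450 genes, filled green points are members with a CpG-rich start site window and open circles are genes of the enterocyte list. The P450 genes ran from 2.22 to 3.91 in fold, against a median of 2.37 over all members, and 9 of the 13 were narrower than the median member.

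Among classes of genes formed from their symbols, the cytochrome P450 genes held the highest share of members. Of 98, 13 were members (13.3%, interval 7.26 to 21.6) against 2.9% of all coding genes, and 9 (9.18%) were called in control only, 40 in both and 36 in neither. The 13 were Cyp2c65, Cyp3a57, Cyp2d40, Cyp2c66, Cyp2c55, Cyp8b1, Cyp4f39, Cyp2c38, Cyp3a11, Cyp2j5, Cyp2c29, Cyp2d9 and Cyp2j11. The class thus had a high share of start sites called in either single library, and the control-only share was also above the 5.71% of all coding genes. Fold in these members had a median of 3.07 (2.22 to 3.91) and width a median of 351 bp, and their median CpG ratio was 0.098. In a bulk culture, more cells of a type and more accessible DNA per cell cannot be told apart.

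Within the P450 genes, 5 of 15 Cyp2c genes were members, 0 were called in control only or in both, and 10 were called in neither. The 5 were consecutive in the cluster on chromosome 19, with start sites from 39081509 to 39537565. From the first on, Cyp2c55 (fold 3.18, 321 bp), Cyp2c65 (3.91, 332 bp), Cyp2c66 (3.29, 213 bp), Cyp2c29 (2.52, 504 bp) and Cyp2c38 (3.04, 613 bp) each had a peak over the start site. The nearest control peak was 1592 bp away at Cyp2c55, 3748 bp at Cyp2c66, 10966 bp at Cyp2c29 and 118406 bp at Cyp2c38. The next gene in the cluster, Cyp2c39, had no peak within 1 kb in either library. Of 9 Cyp3a genes on chromosome 5, Cyp3a57 and Cyp3a11 were members, Cyp3a13 and Cyp3a25 were called in both and 5 in neither. Cyp8b1, which sets the cholic acid share of bile acids, had a fold of 3.11 in 408 bp and a control peak 2516 bp away. The authors kept uniquely mapping reads, so start sites with near-identical copies elsewhere in these families may lack peaks in both libraries.

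Conjugating enzymes had 5 members of 61 (8.20%), with an interval of 2.72 to 18.1 that includes the 2.9% of all coding genes, and 3 control-only genes (4.92%). Beside Sult1b1, these were the glutathione transferases Gsta1 (fold 3.62, 1170 bp) and Gsta2 (3.11, 247 bp) and the glucuronosyltransferases Ugt2a3 (2.67, 320 bp) and Ugt1a6b (2.16, 645 bp). Ugt2a3 had no control peak within 167815 bp, whereas control peaks lay 1188 bp from Gsta1 and 1466 bp from Gsta2. At Gsta1 the Taf4-inactivated peak overlapped that control peak, which is 1292 bp wide, so the place was called in both libraries. The other 2 of the 4 Gsta genes were called in both libraries. Gsta1 and Gsta2 are close relatives, and reads mapping equally well to both were not kept.

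Genes of enterocytes were also found among members. Of 24 genes in the list, 5 were members (20.8%, interval 7.13 to 42.2, against 2.9% of all coding genes), 2 were called in control only (8.33% against 5.71%), 14 in both and 3 in neither. Cyp3a11 had a fold of 3.00 in 282 bp, Fabp2, the intestinal fatty acid carrier, 2.85 in 336 bp, Mgam 2.83 in 312 bp, Fabp1 2.59 in 217 bp, and Rbp2, the retinol carrier of enterocytes, 2.40 in 372 bp. All 5 peaks were narrower than the median member. The peak covered the start site in 4 of them and lay 156 bp away at Fabp2. Control peaks were 36329 bp away at Cyp3a11 and 6280 bp at Fabp2, but 1486 bp at Mgam, 1822 bp at Rbp2 and 1976 bp at Fabp1, so with a distance of 2 kb in the rule 2 of the 24 genes were members. The control-only genes were Fabp6, a bile acid carrier of the ileum, and Apoa1, for which the nearest Taf4-inactivated peaks lay 11569 and 1122 bp away. Most enterocyte genes, Apob, Mttp, Slc5a1 and Slc2a2 among them, had a start site peak in both libraries.

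Further members with known roles in gut or liver were picked after their values were seen. Slc5a12, a lactate transporter of absorptive epithelia, had a fold of 3.58 in 299 bp with no control peak within 187269 bp, and Slc5a4b, a sodium-coupled carrier, had 3.28 in 208 bp. A1cf (3.75, 317 bp) and Apobec1 (3.24, 510 bp), which together edit the apolipoprotein B transcript, were both members, with control peaks 72538 and 8383 bp away. The carotenoid-cleaving enzymes Bcmo1 (3.01, 236 bp) and Bco2 (3.13, 1096 bp) were members as well. So were the butyrophilin-like genes Btnl3 (2.52, 1989 bp), Btnl6 (3.10, 1665 bp) and Btnl7 (3.49, 479 bp), from a family that shapes intraepithelial T cells, with control peaks 3579, 1249 and 1874 bp away. The peak of Btnl6 overlapped its nearest control peak. The family's Btnl2 was called in both libraries and Btnl9 in control only. Of 358 solute carriers 14 were members (3.91%, interval 2.15 to 6.47) and 17 (4.75%) were called in control only, so the solute carriers as a class were near the background.

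Shares of members in the enteroendocrine list and in the fetal and regenerative list were near that of the enterocyte list. Of 21 enteroendocrine genes 4 were members (19.05%, interval 5.45 to 41.9, against 2.9% of all coding genes). They were the hormone genes Sst (fold 2.36) and Cck (2.12) and the regulators Isl1 (2.25) and Fev (1.99). Their −log10 q ran from 1.54 to 1.89, all below 2, whereas that of the enterocyte members ran from 2.71 to 5.41. Another 3 enteroendocrine genes (14.3%) were called in control only, including the lineage factors Neurog3 and Neurod1. Among 16 Paneth cell genes the member was the niche ligand Wnt3 (2.15, 6.25% of the list). The list had 0 control-only genes, 2 called in both and 13 in neither. Among 12 goblet cell genes the member was the trefoil factor Tff3 (2.34, 8.33%), and 2 (16.7%), Agr2 and Zg16, were called in control only. Among 13 tuft cell genes the member was Avil (1.89, 7.69%), and 2 (15.4%), Alox5ap and Sh2d6, were called in control only. Krt20, a keratin of differentiated villus cells, had 2.59 in 255 bp with the nearest control peak 20755 bp away. Of 17 fetal and regenerative genes 3 were members (17.6%, interval 3.8 to 43.4), Sprr1a (3.32, 240 bp), Gja1 (2.44, 200 bp) and Il33 (2.16, 518 bp). None of the 19 crypt stem cell genes was a member, since all 19 had a start site peak in both libraries, and with 0 of 19 the upper limit of the interval is 17.6%. With lists this short a single gene moves a share by several percentage points.

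The interferon, inflammatory, stress and developmental lists had most of their genes called in both libraries. Lists were counted by annotated entry, and Psmb9 (interferon), Taf9 (TFIID) and Gsx2 (developmental) had 2 entries each, all called in both. Of 30 interferon response genes, Ifit1 (3.07, 403 bp) and Ifitm3 (2.38, 209 bp) were members (6.67%, interval 0.818 to 22.1, against 2.9% of all coding genes) and 2 were called in control only. Of 24 inflammatory genes, Il1b (2.16) and Tnf (2.09) were members (8.33%, interval 1.03 to 27.0) and 4 were called in control only. The −log10 q was 1.27 at Il1b and 1.65 at Tnf. The Il1b peak lay within 1 kb of neither the gene's 5′-most start site nor the start of a coding transcript. Fosb (2.26, 383 bp) was the member among 12 AP-1 factors. The 17 integrated stress response genes, the 19 p53 targets and the 26 polycomb genes all had start site peaks in both libraries, as did 17 of 18 TFIID genes. Of 72 developmental regulators 4 were members (5.56%, interval 1.53 to 13.6), Myf5 (2.27), Sox17 (2.20), Nkx2-5 (2.14) and Six2 (1.998), and 13 (18.1%) were called in control only. In the wider class of developmental transcription factors there were 8 members of 239 (3.35%) and 34 control-only genes (14.2%).

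Germ cell genes gave 3 members of 27 (11.1%), with an interval of 2.35 to 29.2 that includes the 2.9% of all coding genes. They were the piRNA factors Mael (2.60) and Tdrd9 (2.12) and the oocyte gene Nlrp5 (2.20), and 5 of the 27 (18.5%) were called in control only. The peak of Nlrp5 overlapped a control peak. Of the lists for cells other than epithelium, S100b (2.09, 200 bp) was a member among 5 genes of neurons and glia, and there were 0 members among 8 immune, 8 mesenchymal and 5 endothelial genes. Immune and endothelial lists each had 1 gene called in both libraries and 1 in control only, and the mesenchymal list had 4 called in both. The MHC class II list, for genes of antigen presentation, also had 0 members among 11, while 4 were called in control only (36.4% against 5.71% of all coding genes), namely H2-Aa, H2-Eb1, Cd74 and 1 of 2 annotated entries of Ciita, 4 in both and 3 in neither.

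Zinc finger, histone and ribosomal protein genes, like P450 genes and conjugating enzymes, counted more members than control-only genes. Their shares of members, 4.65%, 3.8% and 0.930%, lay on both sides of the 2.9% of all coding genes. Of 430 zinc finger genes 20 were members (4.65%, interval 2.86 to 7.09) and 13 (3.02%) were called in control only, with Zfp187 (3.48, 400 bp), Zfp937 (3.26, 256 bp) and Zfp882 (3.20, 522 bp) highest in fold. Of 79 histone genes 3 were members (3.8%, interval 0.790 to 10.7) and 0 were called in control only, and these were Hist1h3d (3.12, 285 bp), Hist1h2ab (2.69, 265 bp) and Hist1h3i (2.60, 200 bp), short genes of the replication-dependent cluster. Ribosomal protein genes had 2 members of 215 (0.930%, interval 0.113 to 3.32) and 1 control-only gene. Control peaks lay 1221, 1066 and 2900 bp from the histone start sites. Intervals of all 3 classes include 2.9%, and the pairs Zfp942 with Zfp943 and Zfp758 with Zfp944 rest on 1 peak each.

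Classes with fewer members than control-only genes included proteases and their inhibitors, with 16 of 306 (5.23%) against 46 (15.0%), ion channels, with 10 of 241 (4.15%) against 36, and matrix and adhesion genes, with 11 of 261 (4.21%) against 29. Cytokines, chemokines and their receptors had 14 members of 209 (6.70%, interval 3.71 to 11.0) and 18 control-only genes. Keratins and cornified envelope genes had 9 of 143 (6.29%, interval 2.92 to 11.6) and 13. Antimicrobial and secreted defence genes had 8 of 106 (7.55%, interval 3.31 to 14.3) and 10, with the defensins Defb1 (2.54, 354 bp) and Defb50 (2.20, 200 bp) side by side on chromosome 8. Member intervals of the protease, cytokine, keratin and antimicrobial classes lay above 2.9%. Their control-only shares, 15.0%, 8.61%, 9.09% and 9.43%, were also above the 5.71% of all coding genes. Olfactory receptors, of which 1042 of 1106 were called in neither library, gave 13 members (1.18%) and 34 control-only genes, and the 330 vomeronasal receptors gave 0 of either. Genes with predicted names made up 109 members (17.5%) and named genes of no listed class 313 (50.3%). Because classes were assigned from symbols, single genes can be misplaced.

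**Figure D4:**
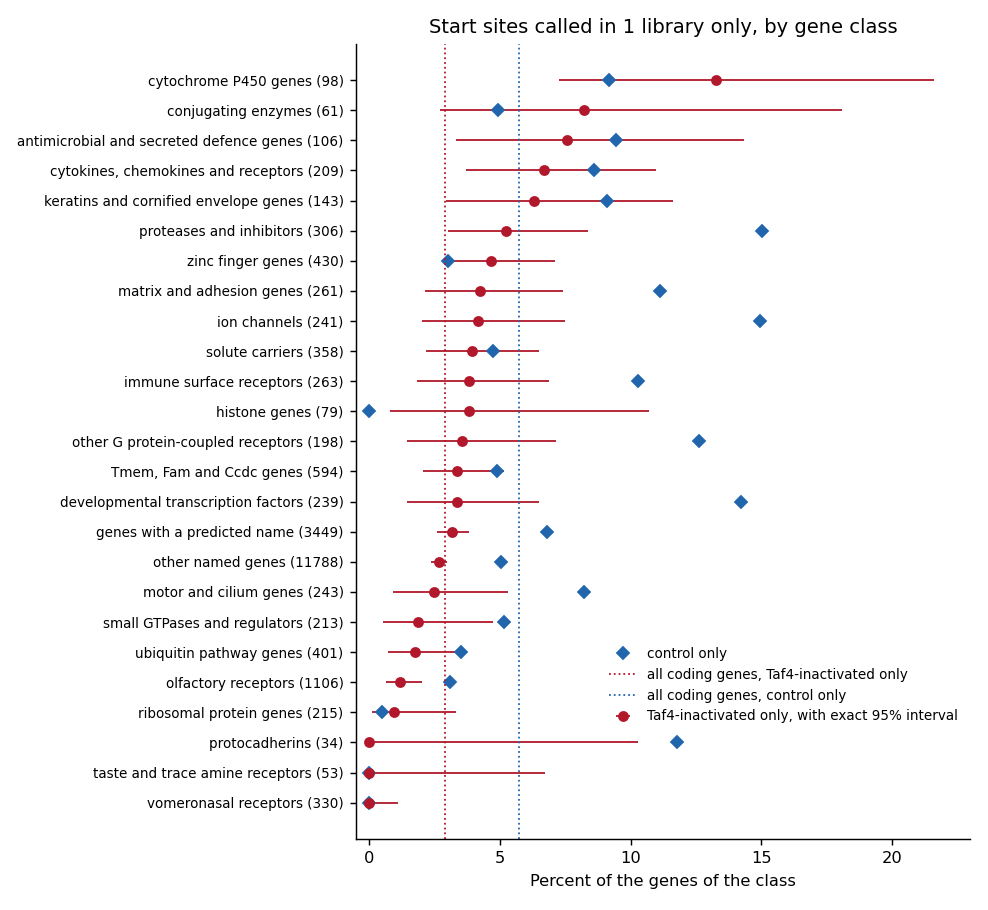
Percent of the genes of each class that were members (circles, with exact 95% intervals that cover counting error only) or were called in control only (diamonds), with the number of genes in brackets and the shares over all coding genes as dotted lines. Cytochrome P450 genes lie highest for members at 13.3%, and in most classes the control-only share is the larger one.

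Member promoters were mostly CpG-poor. The CpG ratio had a median of 0.306 (quartiles 0.174 and 0.499), against 0.733 at promoters called in both libraries, 0.596 at those with a −log10 p inside the members' quartiles (0.311 at the 310 members in that range), 0.280 at control-only promoters and 0.174 at promoters called in neither. A CpG-rich window, with a ratio of at least 0.6 and at least 50% GC in 1 kb, was present in 83 members (13.3%, interval 10.8 to 16.3), in 71.5% of promoters called in both, in 48.8% of those inside that range (14.2% of the members in it) and in 12.6% of control-only promoters. Median GC was 51.0% in members, 60.1% in promoters called in both and 53.1% in control-only promoters. On CpG content the members thus lay close to the promoters called in control only, and between those called in both and those called in neither.

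**Figure D5:**
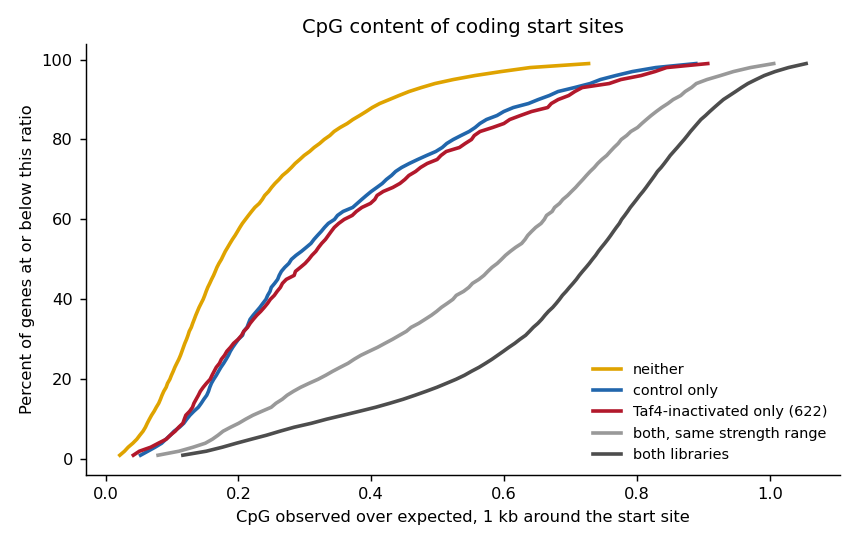
Cumulative distribution of the CpG observed over expected ratio in 1 kb around the start site, against the percent of genes, for members and for coding genes called in both libraries, in both with a −log10 p inside the members' quartiles, in control only and in neither. The curves of members and control-only genes run close together, with medians of 0.306 and 0.280, between neither (0.174) and both (0.733).

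TATAAA occurred within the 300-base promoter window of 109 members (17.5%, interval 14.6 to 20.7), against 12.4% of all coding promoters, 5.53% of those called in both, 12.3% of control-only ones and 27.7% of those called in neither. A match placed between 40 and 20 bases before the start site, as in Mgam, was found in 31 members (4.98%, interval 3.41 to 7.0), against 2.28% of all coding promoters and 2.70% of control-only ones. The share was 4.96% in promoters called in neither, like that of members, and 0.941% in those called in both. GC boxes were in 28.8% of members and 46.8% of all coding promoters, and in 27.7% of control-only ones. GATA matches were in 13.2% against 9.45% of all and 9.98% of control-only promoters, AP-1 matches in 6.91% against 6.65% of all and CCAAT in 35.2% against 36.1% of all. For GATA the share was 18.8% in promoters called in neither and 5.15% in those called in both. The HNF4 pattern was in 8 members (1.29%, interval 0.557 to 2.52), Sult1b1 and Cyp3a11 among them, against 0.532% of all coding promoters and 0.491% of control-only ones. Intervals in control-only promoters were 10.5 to 14.2 for TATAAA, 1.86 to 3.77 for the placed TATAAA and 8.35 to 11.8 for GATA. For GATA the interval in members was 10.6 to 16.1. These intervals cover counting error only, and the 2 sets were called in libraries of unlike depth. The sets also differed in base composition, with a median GC of 51.0% in members and 53.1% in control-only promoters. A difference in motifs between the sets was therefore not tested.

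The 83 CpG-rich members resembled the other 539 in strength, with a median fold of 2.38 against 2.37, but were wider (median 516 against 410 bp) and more often had the peak over the start site (56, or 67.5%, against 279, or 51.8%). Their highest folds, chosen after the values were seen, included Tnfrsf22, Rpap1, Fcgr3 (3.54, 977 bp), Setdb1 (3.39, 260 bp), a histone H3 lysine methyltransferase, Brf2 (3.18, 516 bp), an RNA polymerase III initiation factor, Mybbp1a (3.14, 403 bp) and Magohb (3.12, 2103 bp), a subunit of the exon junction complex. The ribosomal protein gene Rpl36 (2.85, 410 bp) was another. Magohb, Rpap1, Mybbp1a and Rpl36 had control peaks 1039, 1621, 1850 and 2220 bp away. The closest to Setdb1 and Brf2 were 7588 and 5836 bp away. The 2103 bp peak of Magohb overlapped its control peak, so part of that place was called in both libraries.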

How the data were processed

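The ATAC-seq data were 2 lists of peaks, 1 for each genotype given in the labels. The authors mapped reads to mm9 with Bowtie 1.0.0, kept uniquely mapping reads and called broad peaks per library with MACS2 2.1.1, without a model and with extension to 200 bp (versions from the submitters' processing notes). How duplicate and mitochondrial reads were handled is not given in the sources used here. The fold deposited by the authors is a ratio of a peak's signal to the background of the same library. The deposited −log10 p and −log10 q are averages over each peak, and the deposited score is 10 times the −log10 q. Read counts were not used here. Depth was estimated from the background solved from fold and p, as its 5th percentile over the narrowest 10% of peaks. The ratio of the libraries is therefore one of background levels and not of read counts.

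Peaks were joined to GENCODE start sites of the mm9 build (NCBIM37), which also gave the sequences. For each gene the peak with the highest fold within 1 kb of a start site was used. CpG content was taken in 1 kb around the start site nearest that peak, or around the 5′-most one where there was none. Python 3.11.15, numpy 2.4.6, pandas 2.3.3, scipy 1.17.1, pysam 0.24.0 and matplotlib 3.10.9 were used, and the steps were tested on simulated data. With 1 library per genotype no test between genotypes was made.

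The members, gene lists and classes were chosen with earlier results of these data known. Named genes were the 12 members with the highest fold, the 5 with the widest peaks (1 of which is not reported here), every member of a gene list and the 3 genes on each side of each limit, and others are said to have been picked after their values were seen. Alternatives changed the distance, the q threshold, the list size, the width, the start sites and the annotation. Start sites of coding transcripts, and the recount of enterocyte and P450 genes under each alternative, were chosen after seeing the data.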

Additional observations from a re-analysis of the deposited data

How the results depend on the processing

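No paired analysis was possible because each genotype had a single library, and none was left out. Depth limits these counts. The estimated background level of control was 1.65 times that of the Taf4-inactivated library, and a start site without a called peak is not thereby closed.

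The number of members, 622, became 286 when the control peak had to be absent over 5 kb, 343 when any Taf4-inactivated peak had to cover a start site, 977 with a −log10 q of at least 2 in both lists, 387 and 94 with at least 2 and 5 for the present peak alone, and 377 with manually annotated genes. The 343 count any peak of a gene, whereas the 335 given above count only its peak of highest fold. Members minus control-only genes was −601. It reversed to 73 (94 members, 21 control-only genes) with a −log10 q of at least 5 for the present peak, and in the other 5 of those settings, in the same order, was −354, −266, −89, −129 and −345. With the 70000 peaks of highest −log10 p of each list there were 842 members and 970 control-only genes, a difference of −128.

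The median width, 419 bp, moved to 382 bp (absence over 5 kb), 460 bp (start site covered), 516 bp (q of 2 in both lists), 371 bp (q of 2 for the present peak), 457 bp (top 70000) and, by construction, 568 bp (peaks of at least 300 bp). The median CpG ratio, 0.306, moved to 0.336 (start site covered), 0.410 (q of 2 in both), 0.334 and 0.330 (q of 2 and 5 for the present peak). The CpG-rich share, 13.3%, moved to 10.6% with a distance of 2 kb, 16.3% (start site covered), 26.2% (q of 2 in both), 16.8% and 20.2% (q of 2 and 5 for the present peak). Under the reported rule it was 71.5% in promoters called in both and 48.8% in those with a −log10 p inside the members' quartiles. These 2 shares were not recomputed under the other settings. Enterocyte members, 5, became 2 with 2 kb and with absence over 5 kb, 1 with a q of 5, and 3 with peaks of at least 300 bp and with manual annotation. P450 members, 13, became 8 with absence over 5 kb and with a q of 5. Stricter settings select fewer peaks. With a q of 2 in both lists, weaker control peaks no longer counted, so genes with only such control peaks could become members. Beyond that the cause of these shifts was not tested. Of 99 alternative values, 60 were scored as close to the reported one, 38 as moved and 1 as reversed. A count or difference was scored as close within 1.5 times the reported value in either direction. Medians and shares were scored as close inside the 95% interval of the reported value.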

Other observations

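The X chromosome was outside the rule. By the same criteria 26 of its 932 coding genes (2.79%) had a start site peak after Taf4 loss only and 53 (5.69%) in control only, shares like those of chromosomes 1 to 19 (2.90% and 5.71%).

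Members also came in neighbouring groups. There were 35 runs of 2 or more adjacent members, holding 75 members, and the longest was the run of 5 Cyp2c genes. Other runs were Bbox1, Fibin and Slc5a12 on chromosome 2, Apoc4 and Apoc1 on chromosome 7, A1cf and Asah2 on chromosome 19 and Sprr3 and Sprr1a on chromosome 3. Some pairs, such as Mdh1b and Fastkd2, have start sites within 300 bp of each other. These genes were chosen after their values were seen, and how often runs of this kind arise from the spacing of genes was not tested.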
